A study of Mus musculus with 21 samples.

Results

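The B lineage genes followed here were a set of 8 genes: Cd79a, Cd79b, Ms4a1, Cd22, Fcmr, Vpreb3, Pax5 and Ebf1. They were found in all 3 count tables, which list 15945, 22274 and 16645 genes, 23199 distinct genes in all. Of the 8, 8, 6 and 8 matched on the symbol as written in the tables of bone marrow cells, of cytokine-treated cells and of cultured cells. The other 2 in the table of cytokine-treated cells (Ebf1 and Vpreb3, written there in capitals) were matched by Ensembl identifier.

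The series asks how iron bears on eosinophils, and holds poly(A) RNA of 21 libraries from WT mice, with every library labelled as cells of that genotype. Bone marrow eosinophils (n = 3) were compared with bone marrow granulocyte-macrophage progenitors (GMPs, n = 3), both untreated; GMPs are the marrow cells from which granulocytes and monocytes arise. Eosinophils with T2 in their titles (n = 3) were compared with untreated, resting eosinophils (n = 3); the T2 treatment is labelled as IL-4 and GM-CSF with IL33 for replicate 1, IL34 for replicate 2 and IL35 for replicate 3. These 3 libraries were kept as 1 group by their titles; if the cytokines differed as labelled, they are 3 treatments, and p-values then measure the spread over these treatments and not over repeats of 1. Bone marrow-derived eosinophils (BMDEs) were grown in culture for 4 days with SCF and FLT3-ligand at 100 ng/mL each and then with IL-5 at 10 ng/mL. They received 10 µM FAC (ferric ammonium citrate, an iron source; n = 4), 5 µM DFO (deferoxamine, an iron chelator; n = 3) or neither (control; n = 2) on day 4, with RNA extracted on day 7. The isolation of the cells outside these cultures is not given in the sources used here, since all samples carry the BMDE culture text. Nothing in the labels says that the libraries of a group came from separate animals or cultures, so p-values measure the spread between these libraries, which may be technical.

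The B cell receptor is an immunoglobulin held at the membrane by a signalling pair, CD79A and CD79B, the products of Cd79a and Cd79b. Around it sit co-receptors that raise or lower its signal, such as CD20 (Ms4a1) and CD22, an inhibitory receptor that binds sialic acid. EBF1 and PAX5 are the transcription factors that specify and commit cells to the B lineage, and VPREB3 is a protein of pre-B and immature B cells. FCMR is a receptor for IgM. These genes define B cells in the marrow and are not part of the usual eosinophil signature, although CD22 protein is known on eosinophils of the mouse gut.

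On GRCm38 (mm10, GENCODE M21 annotation) Cd79a lies at chr7:24897381-24902197 on the plus strand, and Cd22 on the same chromosome at chr7:30865402-30880342 on the minus strand. Cd79b lies at chr11:106311341-106314762 (minus) and Ebf1 at chr11:44617317-45008091 (plus). Ms4a1 lies at chr19:11249675-11266241 (minus), Pax5 at chr4:44524757-44710487 (minus), Fcmr at chr1:130865669-130880791 (plus) and Vpreb3 at chr10:75943057-75949657 (plus). The values count reads over whole genes. Exons of Pax5 share 636 bases with 5730488B01Rik and 125 bases with Gm12462, and exons of Cd22 share 479 bases with Gm29439, all on the opposite strand. The strand setting of the counts is not given in the sources used here, so reads from these pairs cannot be told apart.

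RefSeq promoter windows (GRCm38.p6) of 250 bases before the transcript start were at hand for 6 of the 8 genes, which excludes Ms4a1 and Cd79b. They were searched on both strands for 3 motifs of B lineage factors: the EBF1 motif (TCCC, any 2 bases, then GGGA), ATGCAAAT (the octamer of POU2F1 and POU2F2) and CAGGTG (an E-box of TCF3). The 3 windows that hold a match are printed because they carry the letters of these factors in genes that were high together in bone marrow eosinophils. Each is cut to its longest stretch outside annotated exons, 5′ to 3′ on the gene's strand, with matches in capitals.
Cd22, chr7:30879029-30879176, minus strand: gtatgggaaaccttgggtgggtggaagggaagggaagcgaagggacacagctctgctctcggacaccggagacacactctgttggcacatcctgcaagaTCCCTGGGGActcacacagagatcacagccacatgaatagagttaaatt
Cd79a, chr7:24897247-24897380, plus strand: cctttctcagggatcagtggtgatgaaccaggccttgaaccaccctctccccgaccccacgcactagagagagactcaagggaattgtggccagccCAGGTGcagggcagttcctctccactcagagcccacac
Vpreb3, chr10:75948050-75948299, plus strand: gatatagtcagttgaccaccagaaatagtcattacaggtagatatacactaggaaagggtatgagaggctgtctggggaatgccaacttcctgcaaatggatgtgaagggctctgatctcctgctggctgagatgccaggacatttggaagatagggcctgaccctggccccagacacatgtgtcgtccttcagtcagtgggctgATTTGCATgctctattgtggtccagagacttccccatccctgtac
In Cd22 the letters TCCCTGGGGA match the EBF1 motif and begin at -49, the base before the RefSeq transcript start being -1; 0.779% of 32851 such windows in the genome hold this motif. In Vpreb3 the octamer begins at -45 on the opposite strand (ATTTGCAT), a motif that 1.60% of windows hold. The E-box of Cd79a begins at -154, and a second, in Cd22 at -245, lies in an annotated exon and outside the printed stretch; 17.2% of windows hold an E-box, so it is common. The motifs do not overlap each other, and a match says only that these letters are present.

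Depth, as the total count of a library, lay between 25870192 and 28523399 for bone marrow eosinophils and between 25857382 and 28992668 for GMPs; it was 17684961 to 18995878 for T2 and 16073573 to 18093548 for resting eosinophils, and 16809789 to 17991878 for BMDEs. Levels below are CPM, that is counts per 1000000 after TMM scaling within a table, and the deposited or rebuilt TPM, which allow for gene length, where genes are set beside each other. The 3 tables were normalized separately, so levels set across them are a description. Eosinophil markers fixed as a list of 10 genes summed to 20125 to 36901 CPM for bone marrow eosinophils and 94.8 to 254 CPM in GMPs, 6082 to 6210 CPM in T2 and 7495 to 7854 CPM in resting eosinophils, and 18627 to 70002 CPM in BMDEs. A pair of libraries stood apart from their groups. Bone marrow eosinophil library 3 lay 1.15 log2 units (root mean square over tested genes) from the mean of its group's other libraries, against 0.814 and 0.578 for libraries 1 and 2, and 13.6% of its counts fell on 12 neutrophil markers. FAC library 6 lay 0.444 log2 units from the other FAC libraries, which lay 0.152 to 0.285 from the rest.

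The plot of levels by library shows the 8 genes in every group. In bone marrow eosinophils Cd79a had 520 TPM in library 1 and 73.7 TPM in library 3, its highest and lowest, and all 8 genes were highest in library 1 on this scale. Cd79a and Cd79b were the most abundant of the 8 per length in all groups but GMPs, where Cd79b alone was abundant.

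**Figure D1:**
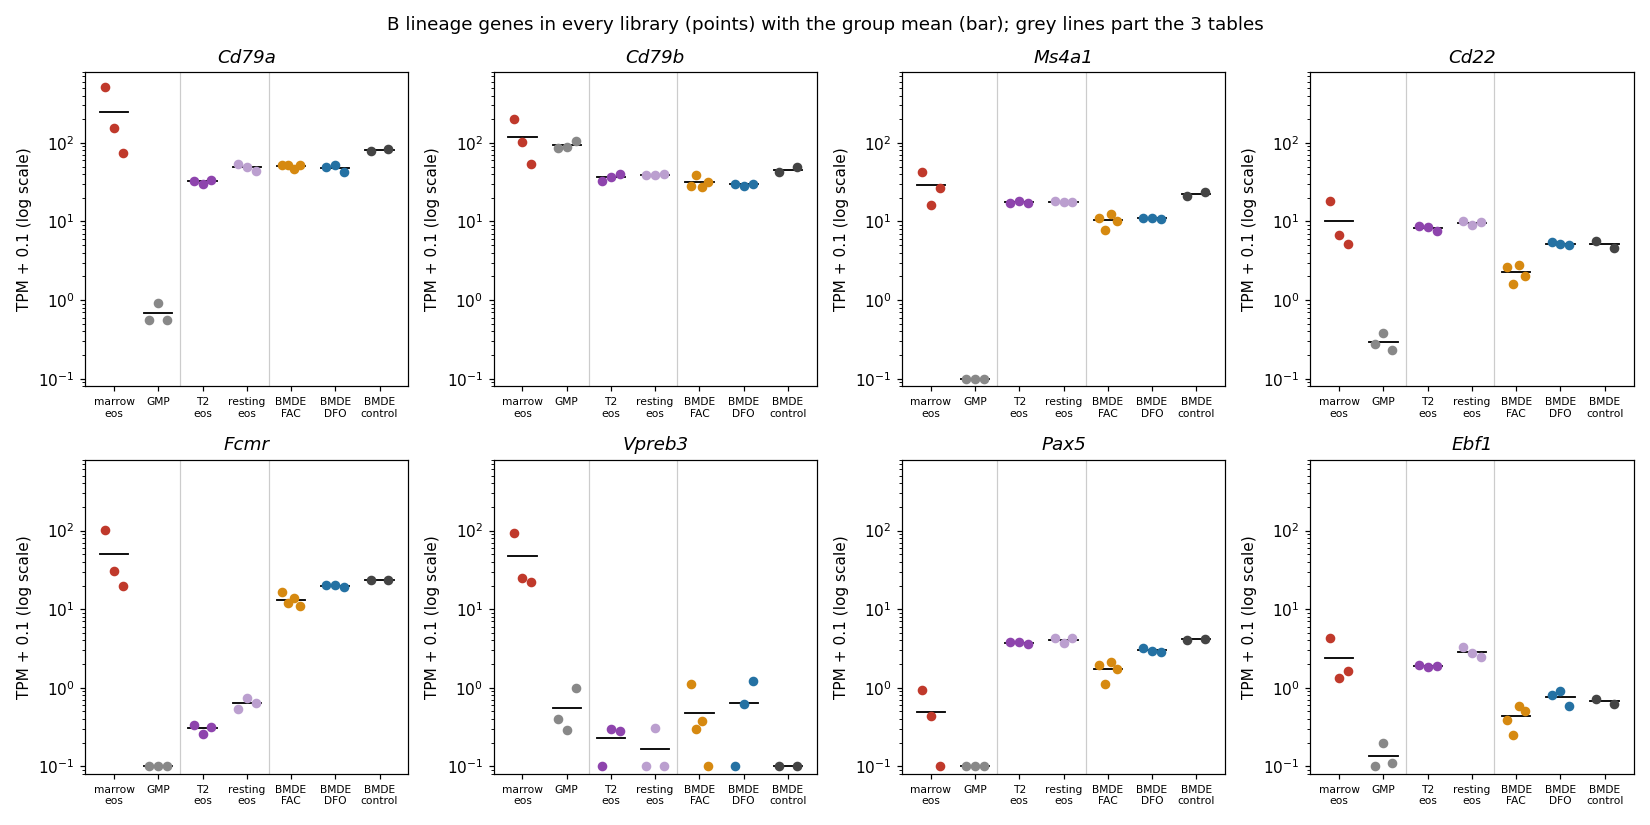
Each panel shows 1 gene as TPM (rescaled from FPKM for T2 and resting eosinophils) plus 0.1 on a log axis, with 1 point per library and a bar at the group mean, for marrow eosinophils (n = 3), GMPs (n = 3), T2 and resting eosinophils (n = 3 each) and FAC (n = 4), DFO (n = 3) and control (n = 2) BMDEs. Grey lines part the 3 tables; Vpreb3 is high in marrow eosinophils alone (22.1 to 94.2 TPM), and Fcmr is under 1 TPM in T2 and resting eosinophils.

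In mean TPM, Cd79a came in the order bone marrow eosinophils (249.9), control BMDEs (81.4), FAC BMDEs (50.6), resting eosinophils (48.9), DFO BMDEs (47.8), T2 eosinophils (32.2) and GMPs (0.583). The libraries of bone marrow eosinophils and control BMDEs overlapped, as did those of FAC BMDEs with resting eosinophils and of resting eosinophils with DFO BMDEs; the other neighbours did not. Ms4a1 came in the order bone marrow eosinophils (28.6), control BMDEs (22.3), resting (17.8), T2 (17.6), DFO BMDEs (10.9), FAC BMDEs (10.3) and GMPs (0), with overlap between bone marrow eosinophils and control BMDEs, between resting and T2, and between DFO and FAC. Both surface genes were thus present in every kind of eosinophil library and at or near 0 in GMPs.

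Pax5 was ordered otherwise. Its mean was 4.02 TPM in control BMDEs, 3.98 in resting and 3.65 in T2 eosinophils (neighbours that overlap), 2.89 in DFO and 1.62 in FAC BMDEs, 0.397 in bone marrow eosinophils and 0 in GMPs. Bone marrow eosinophils, which had the most Cd79a, thus had the least Pax5 of any eosinophil group. Pax5 counts were 0 to 2.17 per 100 Cd79a counts in bone marrow eosinophils. They were 52.6 to 62.6 in T2 and 37.1 to 46.9 in resting eosinophils, and 20.7 to 48.0 in FAC, 59.8 to 70.6 in DFO and 53.0 to 54.5 in control BMDEs. This count ratio is taken within a library and needs no scaling, but gene definitions may differ between the tables.

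Fcmr and Vpreb3 also set the groups apart. Fcmr had 796 to 2482 counts per library in bone marrow eosinophils, 0 in the 3 GMP libraries, 2 to 3 in T2 and 5 to 8 in resting eosinophils, and 167 to 322 in BMDEs. Vpreb3 had 242 to 729 counts in bone marrow eosinophils, 1 to 6 in GMPs, 0 to 1 in T2 and resting eosinophils, and 0 to 4 in BMDEs. Vpreb3 was thus not detectable above a few counts outside bone marrow eosinophils, and neither gene was detectable above a few counts in the T2 table. Resting eosinophils held Cd79a, Ms4a1, Cd22, Pax5 and Ebf1 all the same, with 441 to 560, 376 to 423, 247 to 252, 207 to 211 and 91 to 115 counts per library, each gene in turn.

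The plot of make-up gives the share of each gene in their summed TPM. Cd79a made up 36.4% to 52.7% for bone marrow eosinophils and 0.431% to 0.932% for GMPs, 30.2% to 33.6% in T2 and 37.1% to 42.0% in resting eosinophils, and 37.9% to 47.6% in BMDEs. Vpreb3 made up 7.39% to 10.9% in bone marrow eosinophils and at most 1.005% in any other library. In GMPs Cd79b made up 98.4% to 98.9%.

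**Figure D2:**
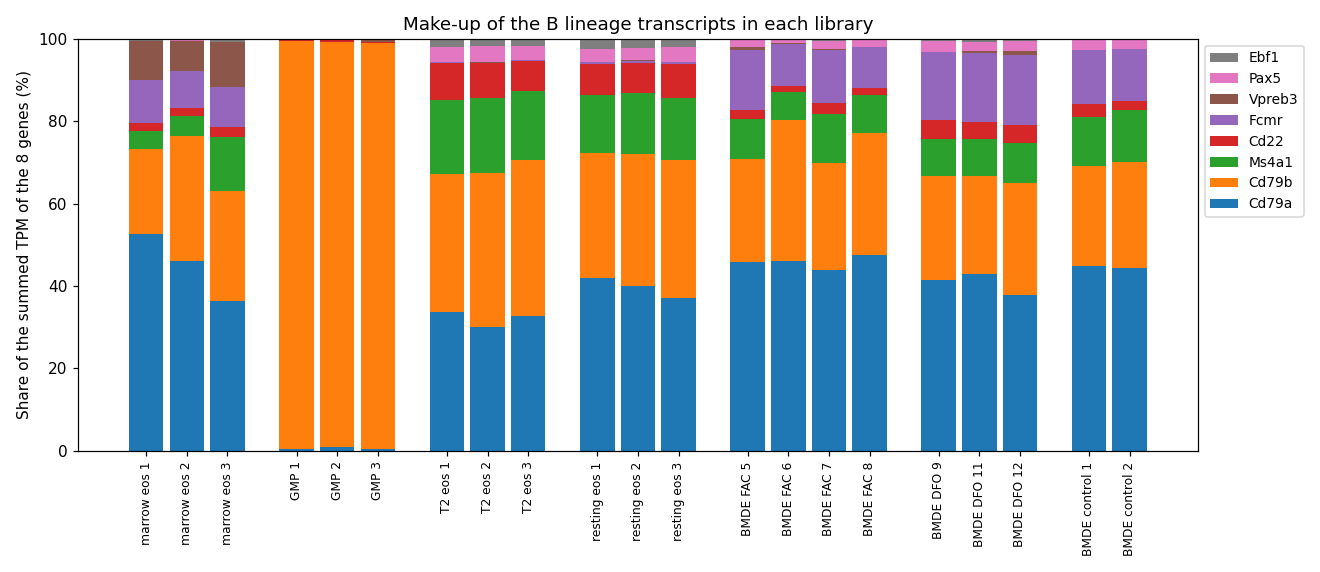
Each bar is 1 library and its colours give the share (%) of each of the 8 genes in their summed TPM, with the tested groups left of those they are set against. GMP bars are almost wholly Cd79b (98.4% to 98.9%), Vpreb3 fills 7.39% to 10.9% of marrow eosinophil bars, and Fcmr fills 10.0% to 17.0% of BMDE bars and at most 0.533% of T2 and resting bars.

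The first comparison sets bone marrow eosinophils, as labelled, against the progenitors of granulocytes. Cd79a, Ms4a1, Cd22, Fcmr, Vpreb3 and Ebf1 were many-fold higher in eosinophils, while Cd79b, already present in GMPs, differed least. Summed over the 8 genes, levels were 325 to 686 CPM for bone marrow eosinophils and 40.5 to 56.7 CPM in GMPs. Of all 12214 genes tested, 19.8% were called (edgeR quasi-likelihood F test, Benjamini-Hochberg adjusted p under 0.05), 13% as higher and 6.78% as lower; of the 8 genes 7 were tested and 7 were called higher. Apart from Cd79b, these passed the filter on low counts through the eosinophil libraries, so that this count is a description. With library totals in place of TMM factors, a choice added after seeing the data, the median over all tested genes moved to -0.41 on the log2 scale, against 0.01 with TMM factors, 40.3% of the calls were higher in place of 65.7%, and Cd79b was not called (edgeR adjusted p = 0.0811). Without eosinophil library 3 all 8 genes were tested and called higher.

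Cd79a, the first of the receptor's signalling chains, had 284, 113 and 106 CPM in libraries 1 to 3 of the eosinophils, and 0.1803, 0.288 and 0.192 CPM in GMPs. Its mean was 167.8 ± 100.4 CPM in eosinophils and 0.220 ± 0.059 CPM in GMPs (SD, n = 3 each), for a log2 fold change of 9.55 (SE 0.61, edgeR adjusted p = 0.000289). The groups did not overlap, as for 48.3% of all genes tested, and library 1 stood above the other eosinophil libraries. Cd79b, the partner chain, had 143, 96.6 and 99.2 CPM in eosinophils and 43.8, 39.5 and 56.1 CPM in GMPs. The log2 fold change of Cd79b was 1.28 (SE 0.23, edgeR adjusted p = 0.0115); the edgeR adjusted p was 0.0744 without GMP library 1 and 0.0652 without GMP library 2. The TPM of Cd79b, unlike its CPM, overlapped between the groups, at 203.7, 103 and 53.9 TPM in eosinophils and 86.5, 87.6 and 105 TPM in GMPs. GMPs thus held 1233 to 1754 counts of Cd79b per library beside 6 to 9 of its partner Cd79a.

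Among the surface genes, Ms4a1 (CD20) had 81.5, 41.1 and 129 CPM in bone marrow eosinophils and 0 counts in every GMP library. Set against the limit that 3 counts over the GMP libraries allow (0.0313 CPM), Ms4a1 was at least 2677-fold higher in eosinophils (edgeR adjusted p = 0.00155). Fcmr had 90.2, 35.8 and 44.7 CPM in eosinophils and 0 counts in GMPs, at least 1816-fold higher (edgeR adjusted p = 0.00133). In CPM Ms4a1 was highest in eosinophil library 3 while Cd79a and Fcmr were highest in library 1. Its unscaled counts were also highest in library 3 (2242, 1070 and 2299 in libraries 1 to 3). In TPM Ms4a1 was highest in library 1 (43.1, 16.3 and 26.4 TPM), as were Cd79a and Fcmr. By counts, which need no scaling, the genes did not keep 1 proportion across these libraries: Ms4a1 counts per 100 Cd79a counts were 28.7, 36.2 and 121. Cd22 had 42.4, 20.5 and 32.6 CPM in eosinophils and 0.301, 0.417 and 0.256 CPM in GMPs, for a log2 fold change of 6.60 (SE 0.46, edgeR adjusted p = 0.000341).

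Vpreb3, the pre-B cell gene, averaged 17.6 ± 8.61 CPM in bone marrow eosinophils and 0.095 ± 0.085 CPM in GMPs (SD, n = 3 each), for a log2 fold change of 7.48 (SE 0.82, edgeR adjusted p = 0.00177). Of the transcription factors, Ebf1 had 14.3, 5.76 and 13.6 CPM in eosinophils and 0, 0.224 and 0.032 CPM in GMPs. Its log2 fold change was 6.98 (SE 1.19, edgeR adjusted p = 0.00937), and the adjusted p was 0.0541 without GMP library 3. Pax5 had 4.61, 2.46 and 0 CPM in eosinophils, that is 127, 64 and 0 counts, and 0 counts in every GMP library; it did not pass the filter on low counts and has no test. Eosinophil library 3, with no Pax5 count, held 1893 counts of Cd79a and 242 of Ebf1.

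Of 53 related B lineage genes in 6 lists, 40 were tested here. By edgeR 23 were called higher in bone marrow eosinophils and 0 lower, beside 13% and 6.78% of all genes. Lower at an unadjusted p under 0.05 were 2, and DESeq2 called 27 higher and 2 lower. Some of these genes, such as Pou2af1 (0.032 CPM in GMPs) and Spib (0.264 CPM), passed the filter on low counts through the eosinophil libraries. These counts are therefore a description. The lists are also not confined to cells with the 8 genes. In GMPs, where Cd79a averaged 0.220 CPM, the co-receptor and signalling list still summed to 927 to 987 CPM. The plasma cell list summed to 348 to 477 CPM there. The name of a list thus does not make its genes markers of B cells in these libraries, here or in the later comparisons. Among co-receptors and signalling proteins 8 of 11 tested were called higher. Cd81, a tetraspanin of the cell surface, averaged 362 ± 8.79 CPM in eosinophils against 105 ± 18.4 CPM in GMPs, and Bank1, a B cell adaptor protein, averaged 38.1 ± 24.6 CPM in eosinophils and 0.466 ± 0.146 CPM in GMPs. Among transcription factors 5 of 11 were called higher, led by Ikzf3 (log2 fold change 6.16), Spib (7.34) and Pou2af1 (7.95). Among mature B cell genes 6 of 9 were called higher, led by Cd37 (1.70), Cd74 of the MHC class II pathway (6.50) and Tnfrsf13c, the BAFF receptor (5.40). Early genes were few: Vpreb1 (2.55) and Igll1 (2.24), the surrogate light chain, were the 2 called of 4 tested. Of plasma cell genes 2 of 5 were called higher, Mzb1 (4.21) and Prdm1 (3.71). The lists' median log2 fold changes were 0.86, 0.74, 4.09, 2.351 and 2.21 in that order, beside 0.01 over all tested genes and 7.48 over the tested genes of the 8. Immunoglobulin genes were not analysed here in this table or in that of BMDEs.

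Neutrophil and erythroid markers were higher in bone marrow eosinophils too, while monocyte markers went both ways. The summed level of 12 neutrophil markers was 33284 to 198213 CPM for bone marrow eosinophils and 77.6 to 109.8 CPM in GMPs, all 12 being called higher. Erythroid markers (12 of 12 called higher) summed to 1368 to 2602 CPM in eosinophils and 26.6 to 28.5 CPM in GMPs. T and NK cell markers summed to 834 to 1081 CPM in eosinophils and 254 to 397 CPM in GMPs. Nearly all of this was Nkg7, which averaged 917 ± 129 CPM in eosinophils and 330 ± 72.1 CPM in GMPs. Of the markers, 4 of 7 tested were called higher (Cd2, Cd3g, Cd4 and Nkg7) and 0 lower (0 also at an unadjusted p under 0.05 and by DESeq2). Of the genes that define T cells, Cd3e lay at 0 to 0.269 CPM in eosinophils and 0 to 0.032 CPM in GMPs, and Cd3g averaged 1.41 ± 1.26 CPM in eosinophils and 0.011 ± 0.018 CPM in GMPs. Monocyte and macrophage markers summed to 3584 to 5184 CPM in eosinophils and 4356 to 5229 CPM in GMPs, with 6 of 11 called higher and 4 lower (Csf1r, Ccr2, F13a1 and Ms4a6c). Plasmacytoid dendritic cell markers summed to 164 to 224 CPM in eosinophils and 132 to 149 CPM in GMPs, with 3 of 7 tested called higher and 1 lower (Tcf4, -1.16). In eosinophil libraries 1, 2 and 3 the neutrophil sum was 33284, 72266 and 198213 CPM. It was above the eosinophil sum in each of them (20279, 20125 and 36901 CPM). The sum of the 8 genes was 686, 325 and 442 CPM, so it and the neutrophil sum did not follow 1 order. The part of these cells in the B lineage values was not tested, and in bulk RNA more cells of a type and more RNA per cell cannot be told apart.

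The second comparison sets cytokine-stimulated against resting eosinophils. Here most of the transcriptome moved, with 76.1% of 11345 genes called (38.2% higher, 37.9% lower), while the B lineage genes moved little: 6 of the 8 were tested, 1 was called higher and 1 lower, and the largest change was 0.32 log2 units. Summed over the 8, levels were 101 to 104 CPM in T2 and 98.0 to 105 CPM in resting eosinophils. The count of 2 called of 6 is below the share over all genes, and their median log2 fold change was 0.12 beside -0.01 over all genes. With library totals only, the median over all genes moved to -0.23 and 36.3% of calls were higher in place of 50.2%; with upper-quartile factors it moved to -0.13.

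Cd79a had 22.9, 21.0 and 23.8 CPM in T2 eosinophils and 31.5, 27.9 and 25.5 CPM in resting eosinophils. The groups did not overlap (77.7% of all genes tested do not), and Cd79a was lower with T2 by a log2 fold change of -0.32 (SE 0.085, edgeR adjusted p = 0.0026), a call that every alternative kept. Ms4a1 had 25.7, 26.7 and 25.6 CPM in T2 and 22.0, 21.6 and 21.7 CPM in resting eosinophils, a log2 fold change of 0.26 (SE 0.068, edgeR adjusted p = 0.00289). The adjusted p of Ms4a1 was 0.0701 with upper-quartile factors and 0.617 with library totals, so its call rests on the scaling. The 2 genes thus moved in opposite directions in the main scaling.

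Pax5 averaged 13.3 ± 0.898 CPM in T2 and 11.5 ± 0.623 CPM in resting eosinophils (SD, n = 3 each; log2 fold change 0.22, edgeR adjusted p = 0.0545; its sign turned with library totals). Ebf1 averaged 4.70 ± 0.143 CPM in T2 and 5.85 ± 0.599 CPM in resting eosinophils (-0.31, edgeR adjusted p = 0.0722). Cd79b averaged 21.3 ± 2.07 CPM in T2 and 19.0 ± 0.339 CPM in resting eosinophils (0.17, edgeR adjusted p = 0.0767; -0.05 with library totals). None of these 3 passed the threshold. Cd22 was at 14.4 ± 0.990 CPM in T2 and 13.8 ± 0.768 CPM in resting eosinophils, a log2 fold change of 0.06 with a 95% interval of -0.13 to 0.26 (edgeR adjusted p = 0.542); its sign turned with upper-quartile factors (-0.05) and with library totals (-0.15).

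The immunoglobulin genes were measured in this table. Ighm, the heavy chain of IgM, fell with T2 to 179.7 ± 14.5 CPM, against 445 ± 10.3 CPM in resting eosinophils (log2 fold change -1.31, SE 0.053, edgeR adjusted p = 2.32e-12); it was the 1 of 6 immunoglobulin genes called. Igkc, the kappa light chain, was at 54.9 ± 4.13 CPM in T2 and 55.1 ± 4.00 CPM in resting eosinophils (edgeR adjusted p = 0.972), and Ighd was at 4.30 ± 0.223 CPM in T2 and 4.43 ± 0.161 CPM in resting eosinophils. The heavy chain of IgM thus fell without a call for the light chain counted beside it. Over the related lists 15 of 43 tested genes were called higher and 12 lower, beside 38.2% and 37.9% of all genes, so the count over all of them is not above the background. Of the transcription factor list 4 of 11 were called higher and 5 lower, led by Pou2f2 (OCT2) at 194 ± 13.7 CPM in T2 and 8.41 ± 0.573 CPM in resting eosinophils (4.53) and Ikzf1 (IKAROS; 1.3). Of the co-receptor and signalling list 7 of 12 were called higher and 2 lower, led by Pik3ap1 (2.33), an adaptor for PI3 kinase, and Cd81 (1.95). Of mature B cell genes 2 of 8 were called higher and 4 lower, led by Tnfrsf13b (TACI; 2.53) and Ralgps2 (-1.63). Il7r (1.05), the 1 early gene tested, and Xbp1 (2.60), the 1 plasma cell gene of 5 called, were higher.

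Summed neutrophil markers were at 1275 to 1332 CPM in T2 and 2484 to 2708 CPM in resting eosinophils, and T and NK cell markers at 30.04 to 31.99 CPM in T2 and 30.05 to 36.4 CPM in resting eosinophils. Summed plasmacytoid dendritic cell markers were at 151 to 167 CPM in T2 and 121 to 137 CPM in resting eosinophils, with 2 of 6 tested called higher (Bst2, 0.55, and Runx2, 0.33) and 2 lower. Siglech, which defines those cells, had 0 counts in every T2 library and 1 to 2 in resting libraries, and Klk1 had 0 counts in all of them. Their part in the B lineage values was not tested.

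The third set of comparisons asks how iron supply changed BMDEs. Both treatments were compared with the same 2 control libraries, so the changes against control are not independent of each other. By calls, Ms4a1 and Pax5 fell in both arms, Cd22 and Fcmr with iron loading (FAC), and Cd79a with iron depletion (DFO). These calls were not equally firm. Of 15 alternatives, all kept Ms4a1 in both arms. With FAC, 14 kept Pax5, 13 kept Cd22 and 4 kept Fcmr. With DFO, 12 kept Cd79a and 6 kept Pax5. Of the 7 genes tested, edgeR called 0 higher than control in either arm, and 0 were higher at an unadjusted p under 0.05 or by DESeq2. Summed over the 8, levels were 92.5 to 114 CPM with FAC, 92.6 to 103 CPM with DFO and 153 to 161 CPM in controls.

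Against control, 4 of 7 tested genes fell with FAC where 6.04% of all genes were called (1.76% higher, 4.28% lower), and 3 of 7 fell with DFO where 11.6% were called (6.46% higher, 5.12% lower). Vpreb3, with 0 to 4 counts in treated and 0 in control BMDEs, was not tested. The counts are sensitive to the libraries: leaving out FAC library 6 gave 6 of the genes called with FAC and 5 with DFO, and leaving out control library 1 gave 1 in each, leaving out control library 2 gave 1 with DFO, and leaving out DFO library 12 gave 1 with DFO. With library totals only, 15.95% of calls were higher with FAC in place of 29.2%, the median over all genes being -0.10.

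**Figure D3:**
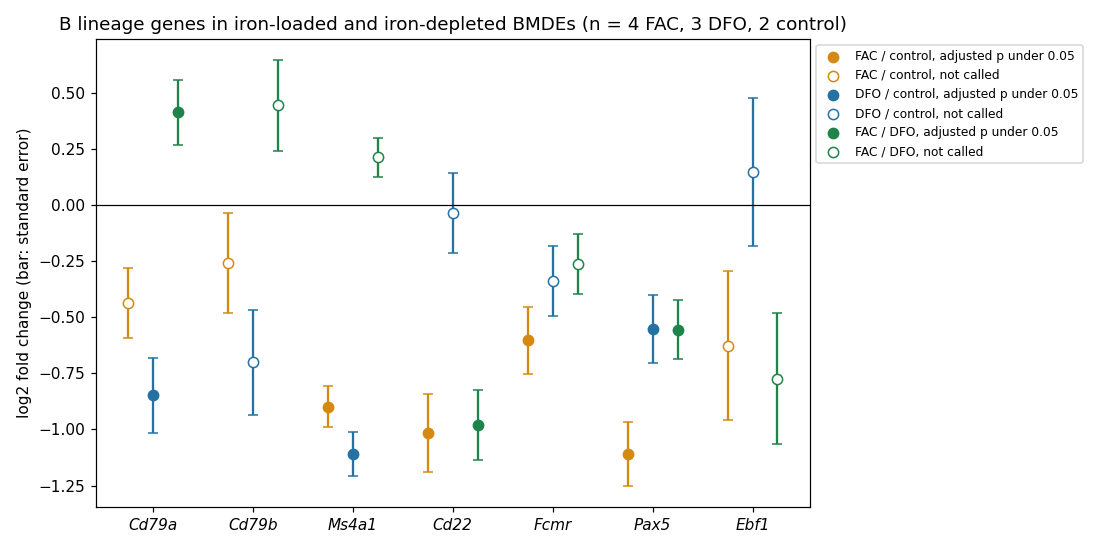
Log2 fold change of each tested B lineage gene with its standard error for FAC against control, DFO against control and FAC against DFO BMDEs (n = 4 FAC, 3 DFO and 2 control libraries); filled points have an edgeR adjusted p under 0.05. Ms4a1 and Pax5 lie below 0 in both arms against control, and Cd22 lies near 0 with DFO (-0.04) and well below it with FAC (-1.02).

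Ms4a1 had 22.0, 19.0, 22.5 and 19.6 CPM with FAC, 18.4, 17.8 and 17.6 CPM with DFO and 36.5 and 41.0 CPM in controls. Every treated library lay below both controls (19% of all genes lie so with FAC, 32.9% with DFO). The log2 fold change of Ms4a1 was -0.90 with FAC (SE 0.092, edgeR adjusted p = 0.00146) and -1.11 with DFO (SE 0.099, edgeR adjusted p = 0.000664), and all 15 alternatives kept both calls. Between the arms Ms4a1 differed by 0.21 (95% interval 0.02 to 0.41, edgeR adjusted p = 0.0684).

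Pax5 had 10.7, 7.31, 10.8 and 9.25 CPM with FAC, 15.3, 13.5 and 13.1 CPM with DFO and 20.3 and 20.7 CPM in controls. Of all genes, 28.9% have FAC wholly below DFO, 32.9% DFO wholly below control and 19% FAC wholly below control. For Pax5 all of these held, with the FAC libraries lowest, the DFO libraries between and the controls highest, without overlap. The log2 fold change was -1.11 with FAC (SE 0.14, edgeR adjusted p = 0.00335; 0.0572 without control library 1) and -0.55 with DFO (SE 0.15, edgeR adjusted p = 0.045). Pax5 in FAC against DFO was -0.56 (SE 0.13, edgeR adjusted p = 0.00776), a call kept in every alternative, with an adjusted p of at most 0.0375. Its call in DFO against control was kept in 6 of 15 alternatives. Ebf1, the other B lineage transcription factor, was at 1.01, 0.665, 1.62 and 1.37 CPM with FAC, 2.231, 2.349 and 1.419 CPM with DFO and 1.95 and 1.66 CPM in controls, and passed in no comparison (edgeR adjusted p = 0.285 FAC against control, 0.824 DFO against control and 0.0517 FAC against DFO). With 11 to 42 counts per library its precision is low.

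Cd22 had 6.57, 4.41, 6.29 and 4.85 CPM with FAC, 11.9, 10.6 and 10.3 CPM with DFO and 12.5 and 9.86 CPM in controls. Every FAC library lay below every DFO and control library (28.9% of all genes lie so below DFO and 19% below control). The DFO and control libraries overlapped. The log2 fold change of Cd22 with FAC was -1.02 (SE 0.17, edgeR adjusted p = 0.0115; 0.174 without control library 1) and with DFO -0.04 (95% interval -0.43 to 0.36, edgeR adjusted p = 0.924). In FAC against DFO, Cd22 differed by -0.98 (SE 0.16, edgeR adjusted p = 0.000883), kept in every alternative.

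Cd79a had 27.9, 35.3, 22.5 and 27.1 CPM with FAC, 22.4, 22.7 and 18.6 CPM with DFO and 37.3 and 39.0 CPM in controls. In both arms Cd79a lay below both controls in every treated library (19% of all genes lie so with FAC, 32.9% with DFO). Its log2 fold change was -0.85 with DFO (SE 0.17, edgeR adjusted p = 0.0125) and -0.44 with FAC (edgeR adjusted p = 0.143). The DFO call was lost without control library 1 (0.0826), control library 2 (0.108) or DFO library 12 (0.0553). Cd79a in FAC against DFO was 0.41 (SE 0.14, edgeR adjusted p = 0.0397), a call kept in 6 of 15 alternatives. Cd79b had 20.0, 34.2, 17.7 and 22.0 CPM with FAC, 17.8, 16.5 and 17.5 CPM with DFO and 26.3 and 29.9 CPM in controls. FAC library 6 had the most of both chains, and without it Cd79b was called in DFO against control (-0.71, edgeR adjusted p = 3.91e-05) and in FAC against control (-0.49, edgeR adjusted p = 0.00171).

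Fcmr had 14.7, 13.1, 11.1 and 9.53 CPM with FAC, 14.99, 14.7 and 13.9 CPM with DFO and 18.3 and 18.5 CPM in controls. The log2 fold change with FAC was -0.60 (SE 0.15, edgeR adjusted p = 0.0453), a call kept in 4 of 15 alternatives; with DFO it was -0.34 (edgeR adjusted p = 0.208). FAC against DFO did not pass (-0.26, edgeR adjusted p = 0.129). All treated libraries lay below both controls (19% of all genes lie so with FAC, 32.9% with DFO).

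Between iron loading and depletion the called genes went in both directions. In FAC against DFO, 3 of 7 tested genes were called where 48.2% of all genes were (23.5% higher, 24.8% lower): Cd22 and Pax5 lower, Cd79a higher. This count is not above the share over all genes. The median log2 fold change of the 7 was -0.26 beside -0.01 over all genes. Leaving out FAC library 6 gave 6 called and leaving out FAC library 7 gave 5. With library totals only, 4 were called, all lower, 32.3% of all calls were higher in place of 48.7%, and the median over all genes was -0.14. The plot of related lists shows the other genes, which differed by list. Over these lists, without immunoglobulin genes, 8 of 41 tested genes were called higher and 22 lower, beside 23.5% and 24.8% of all genes. Of the transcription factor list 7 of 11 were lower in FAC and 1 higher: Spib was at 54.6 ± 2.84 CPM with FAC, 189.7 ± 6.76 CPM with DFO and 105.4 ± 0.154 CPM in controls, and Bcl11a at 11.4 ± 1.12 CPM with FAC, 45.6 ± 2.40 CPM with DFO and 23.7 ± 0.151 CPM in controls. Pou2af1, a coactivator at immunoglobulin promoters, was the 1 higher, at 20.0 ± 2.31 CPM with FAC, 11.6 ± 0.822 CPM with DFO and 25.5 ± 2.24 CPM in controls. Of the plasma cell list Jchain, the joining chain of IgM, and Mzb1 were higher in FAC than DFO (1.59 and 1.53; 3 of 5 higher, 2 lower). Of early genes Dntt, the terminal transferase, and Il7r were lower (-2.49 and -0.87), and of the co-receptor list 4 of 13 were higher and 6 lower, led by Fcgr2b (0.81), the inhibitory IgG receptor, and Pik3ap1 (-0.84). Of mature B cell genes 5 of 10 were lower and 0 higher (0 also at an unadjusted p under 0.05 and by DESeq2), led by Ciita (-1.50), the regulator of MHC class II, and Fcrl1 (-1.40).

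**Figure D4:**
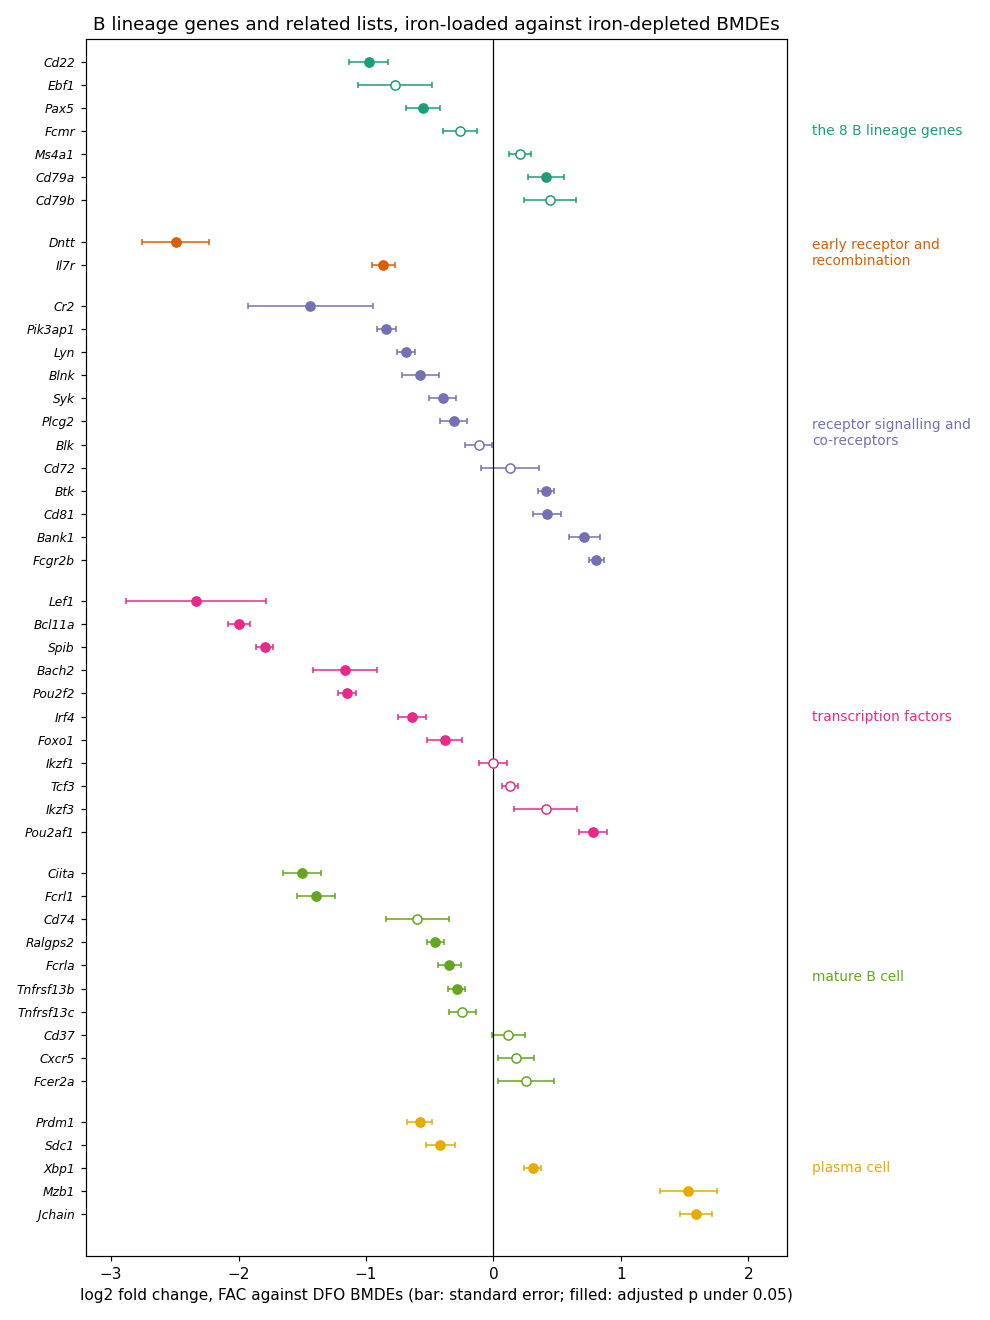
Log2 fold change with its standard error in FAC against DFO BMDEs for the tested B lineage genes and genes of the related lists, 1 row a gene, sorted within each list (n = 4 FAC and 3 DFO libraries; filled points have an edgeR adjusted p under 0.05). Dntt (-2.49), Spib (-1.80) and Cd22 (-0.98) lie left of 0, and Jchain (1.59), Mzb1 (1.53) and Cd79a (0.41) lie right of it.

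Against control, Blk, a B cell tyrosine kinase, was lower in both arms (log2 fold change -0.99 with FAC, -0.87 with DFO). Tnfrsf13c fell in both arms (-0.88 with FAC, -0.63 with DFO), Fcrla fell with FAC (-0.57), and Jchain fell with DFO (-1.46). Spib and Bcl11a were higher with DFO (0.85 and 0.94) and lower with FAC (-0.95 and -1.05). Fcrl1 (0.76), Sdc1 (0.87) and Il7r (0.64) were called higher with DFO only. With FAC they were at -0.64, 0.45 and -0.23 in that order, none called. Dntt was called lower with FAC (-1.60) and was not called with DFO (0.90). Of the 41 tested genes of these lists, FAC against control called 1 higher and 12 lower, where 1.76% and 4.28% of all genes were, and DFO against control called 8 higher and 9 lower, where 6.46% and 5.12% were. Across the 9 BMDE libraries genes whose level kept close to the sum of the 8 were Gimap3 (SD of the log2 ratio 0.125), Blk (0.146), Dtx1 (0.151) and Tmem126b (0.152), of 10866 genes compared; libraries share their depth and treatment, so this is a description. In the 6 libraries of bone marrow eosinophils and GMPs they were Pde8a (0.219), Pld3, Ptafr, Slc5a11 and Slc45a3, and in the 6 of T2 and resting eosinophils, where the sum was flat, Chmp3 (0.017), Epc1, Ap3d1, Prdx6 and Tmem64.

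Plasmacytoid dendritic cell markers, of which all 10 were listed and counted, summed to 252 to 325 CPM with FAC, 975 to 998 CPM with DFO and 512 to 529 CPM in controls, and 10 of 10 were called lower in FAC against DFO. Their order, lowest with FAC and highest with DFO, was also that of Spib, Bcl11a and Dntt. Cd22 was lowest with FAC as well, while its DFO and control libraries overlapped. Summed eosinophil markers were at 57859 to 70002 CPM with FAC, 18627 to 22014 CPM with DFO and 42536 to 43485 CPM in controls. Summed neutrophil markers were at 6501 to 9378 CPM with FAC, 16847 to 18917 CPM with DFO and 9208 to 11017 CPM in controls. Of these 12, FAC against DFO called 11 lower and 1 higher. Ly6g went the other way, at 37.1 ± 11.6 CPM with FAC, 7.74 ± 0.409 CPM with DFO and 20.1 ± 0.025 CPM in controls. T and NK cell markers summed to 81.6 to 118 CPM with FAC, 64.9 to 72.9 CPM with DFO and 88.0 to 88.6 CPM in controls. Much of this sum was Nkg7, which averaged 35.3 CPM with DFO and 55.1 CPM in controls. The sum does not stand for the list: of 10 tested, FAC against DFO called 2 higher and 3 lower. Their median log2 fold change was -0.79. The part of these cells in the B lineage values was not tested.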

How the data were processed

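Poly(A) RNA was sequenced from 21 libraries in 7 groups. Per the labels' protocols, oligo(dT) beads enriched the mRNA and the NEBNext Ultra chemistry gave the libraries. RSEM, HISAT2, StringTie 1.3.1, Bowtie2 2.2.8 and fastp 0.18.0 stand in the submitters' processing notes, for mm10 and with no roles. The authors deposited expected counts (estimated reads per gene, rounded here) and TPM for bone marrow cells and BMDEs, and read counts with FPKM for T2 and resting eosinophils; that FPKM was rescaled here to sum to 1000000 per library (TPM). Their own log2 ratios and p-values, as deposited by the authors for the T2 table, were not used.

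Symbols were matched by identifier (15899, 22219 and 16596 genes of the tables of bone marrow cells, T2 and resting eosinophils, and BMDEs). Each table was fitted alone in edgeR 4.0.16 (R 4.3.3; filterByExpr with a minimum count of 10, TMM, two-sided quasi-likelihood F test, Benjamini-Hochberg over all tested genes; called under 0.05), and the script was tested on simulated data. BMDE arms shared 1 fit. Intervals are 95%. Errors after ± are SDs. Fold changes against 0 counts are bounds from 3 counts over the group, which cover counting error only.

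The 8 genes and all lists were chosen with earlier results of these data known. From each B lineage list the called genes with the smallest adjusted p were named. These were the 3 smallest in bone marrow eosinophils against GMPs and the 2 smallest in other comparisons. Ighd, Igkc and Pou2af1 were also given where they fell outside that rule, chosen after their values were seen. Genes of other cell types were named outside that rule. A list gene that is counted in its list is not reported here by name. Alternatives were DESeq2 1.42.0, upper-quartile and RLE factors, no filter, each library left out, the replicate number as a block, only the compared groups and, added after seeing the data, library totals.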

Additional observations from a re-analysis of the deposited data

How the results depend on the processing

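Of 471 results of single genes under the alternatives, 400 kept direction and side of the threshold, 41 lost a call, 23 gained one and 7 turned sign. The signs that turned belonged to uncalled genes: Cd22 in T2 against resting eosinophils (-0.052 with upper-quartile factors, -0.15 with library totals), Pax5 (-0.0021) and Cd79b (-0.047) there with library totals, and Cd22 in DFO against control BMDEs (from -0.20 without control library 2 to 0.15 without control library 1, 0.01 without DFO library 12 and 0.0032 with library totals). Genes called over the whole table in bone marrow eosinophils against GMPs numbered 3867 with DESeq2 and 747 to 4623 with 1 library left out, against 2413. In DFO against control BMDEs they numbered 217 to 4899 with 1 library left out and 5982 with only those 2 groups fitted, against 1460. In FAC against control BMDEs they numbered 1311 with DESeq2, 76 to 2728 with 1 library left out and 116 with only those 2 groups fitted, against 761. Of the 8 genes, DFO against control called 1 to 5 with 1 library left out and 5 with only those 2 groups, FAC against control 1 to 6 and 2, and FAC against DFO 2 to 6 with 1 library left out. Leaving out FAC library 6 gave the highest of these counts, and leaving out control library 1 gave the lowest against control (shared, with DFO, by control library 2 and DFO library 12); the cause was not tested beyond the values given. Bone marrow eosinophil and GMP libraries of the same replicate number had correlations of deviations of 0.0124, 0.00498 and 0.119, against -0.176 to 0.144 for unlike numbers. In T2 and resting eosinophils they were -0.00918, -0.0216 and 0.0335, against -0.0491 to 0.0523. With 3 libraries a group these values cannot decide whether the libraries are paired. With the number as a replicate block 1419 genes were called in bone marrow eosinophils against GMPs, and 7 of the 8 genes as before. BMDE arms share no numbers. Counts of 0 to 8 leave Fcmr in T2 and resting eosinophils, and Vpreb3 outside bone marrow eosinophils, with low precision; GMP libraries were as deep as those of bone marrow eosinophils.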
